A study of Mus musculus with 20 samples.

Results

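Cnn3, Alg14, Slc44a3, F3, Abcd3 and Rwdd3 lie close together on mouse chromosome 3, and their chromatin-associated RNA was followed after induction of IKZF1 (Ikaros) in B3 cells. These 6 genes, of 56239 counted, were selected on their position and on earlier results of the same libraries, namely a lower level of Cnn3 beside a level of Alg14 described as unchanged. The changes of Cnn3 and Alg14 are therefore given as a description, with no p-value, and both are kept out of the counts of called genes. B3 is a mouse pre-B cell line, and all cells carried the Ikaros-ERt2 construct, introduced with a retrovirus. Cells without the construct were not analysed here. Libraries were made before induction (0 h) and 0.5, 1, 2, 6, 12, 15, 18, 21 and 24 h after addition of 500 nM 4-hydroxytamoxifen (4-OHT), which makes 10 time points of 2 replicates. A time point after 0 h differs from 0 h in both drug and time, so the 2 cannot be told apart here. The labels do not say whether replicates were separate cultures, and p-values then measure only the spread between these libraries. The descriptions of the 0 h libraries share a replicate number and differ only in a further suffix, unlike those at the other times. They may thus be repeat libraries of 1 culture, and the changes from 0 h all rest on them.

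IKZF1 is a zinc finger transcription factor that lymphoid cells need to develop. Fused to the ERt2 hormone-binding domain, it stays outside the nucleus until 4-OHT is added, so that the first changes in transcription can be followed in time. RNA attached to chromatin is rich in transcripts still being made, and reads in introns were counted together with those in exons. Neighbouring genes can share enhancers, and the comparison asked here is which genes of the neighbourhood moved with Cnn3 and which did not.

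In GRCm38, with gene bodies from GENCODE M21, the order along the chromosome is Rwdd3 (ENSMUSG00000028133, chr3:121155398-121171695, minus strand), Alg14 (ENSMUSG00000039887, chr3:121291773-121363094, plus), Cnn3 (ENSMUSG00000053931, chr3:121426497-121458207, plus), Slc44a3 (ENSMUSG00000039865, chr3:121459528-121532404, minus), F3 (ENSMUSG00000028128, chr3:121723537-121735048, plus) and Abcd3 (ENSMUSG00000028127, chr3:121758774-121815302, minus). Cnn3 and Slc44a3 are transcribed towards each other, and their annotated ends are 1320 bases apart. Alg14 ends 63.4 kb before Cnn3 starts, and both run in the same direction. F3 lies 191 kb beyond Slc44a3.

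The sequences before the starts of Cnn3, Slc44a3 and Alg14 are shown because the first pair moved together and the last lies upstream of Cnn3. Each is the 250 bases before a RefSeq start in GRCm38.p6, read 5′ to 3′ on the gene's own strand. Capitals mark GGAA and GGGA, which the study counts as IKZF1 motif cores, and TTCC and TCCC, the same letters on the other strand. GGGAA holds both GGGA and GGAA and was counted under each, and the same holds for TTCCC. The window of Alg14 precedes a start inside the RefSeq gene, so its last 28 bases lie within the RefSeq gene, although it ends before the GENCODE body. By the GENCODE bodies given above, the ends of the Cnn3 and Slc44a3 windows lie inside those genes. Some of the marked letters of both fall in these stretches.
Cnn3, chr3:121426291-121426540, plus strand: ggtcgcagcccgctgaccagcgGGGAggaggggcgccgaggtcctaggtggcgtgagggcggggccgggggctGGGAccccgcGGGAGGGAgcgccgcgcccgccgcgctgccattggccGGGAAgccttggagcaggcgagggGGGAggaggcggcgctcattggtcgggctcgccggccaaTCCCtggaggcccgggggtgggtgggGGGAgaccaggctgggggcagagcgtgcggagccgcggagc
Slc44a3, chr3:121532345-121532594, minus strand: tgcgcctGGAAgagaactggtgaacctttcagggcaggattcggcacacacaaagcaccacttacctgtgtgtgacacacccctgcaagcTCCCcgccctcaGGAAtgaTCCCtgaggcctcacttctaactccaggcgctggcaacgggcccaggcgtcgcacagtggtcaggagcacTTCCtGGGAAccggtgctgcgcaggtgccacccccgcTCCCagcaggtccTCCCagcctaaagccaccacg
Alg14, chr3:121291490-121291739, plus strand: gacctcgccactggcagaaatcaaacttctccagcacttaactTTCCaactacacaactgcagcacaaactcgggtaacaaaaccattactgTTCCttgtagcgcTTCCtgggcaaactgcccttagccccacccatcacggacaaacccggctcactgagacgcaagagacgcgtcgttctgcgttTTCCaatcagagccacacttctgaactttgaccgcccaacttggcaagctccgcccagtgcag
Cnn3 held 9 matches, 7 of them GGGA, in a window with 78.8% G and C. Slc44a3 also held 9 matches, of all 4 kinds. Alg14 held 4 matches, all TTCC. Of the other members, whose sequences are not shown, F3 held 6 and Rwdd3 5, and the windows before the RefSeq starts of Abcd3 held 5 and 9. A count of 9 was thus also found at Abcd3, which rose, in a window inside its GENCODE body. Over 32841 RefSeq promoters of the same length the median was 6 matches. As many as 9 matches, or more, were found in 21.1% of these promoters, and as many as in Alg14, or more, in 80.1%. Of all promoters, 98.9% held at least 1 match, and each of the 4 letter strings was found in 73.2% to 73.5%. A match of letters is a description of the window and does not show that IKZF1 binds there.

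Total counts per library ran from 33296158 to 46868954. The replicates after 12 h and 18 h stood further apart than those at the other times, with a chi-square per degree of freedom of 8.85 and 13.4 over all tested genes, against 1.41 at 0 h and 1.23 after 2 h. Leaving out both of those time points changed no call over the time course or at 1, 2, 6 and 24 h in the neighbourhood. Of the 10 pre-B cell genes examined, 8 passed the filter on low counts, among them Ebf1, Pax5, Ighm and Cd79a. The summed level of the 10 lay between 8092 and 16310 CPM (counts per 1000000 library counts), and Ebf1 alone averaged 9411 CPM. Over the time course 7 of the 8 were called, against 51.9% of all tested genes. At 24 h 5 were called higher and 2 lower, against 20% and 20.1% of all tested genes. The 2 lower were Igll1, from 169 CPM at 0 h to 0.985, and Vpreb1, from 17.6 to 0.370. Both were named after their values were seen. Rag1 and Rag2 had no counts in any library, and their annotated bodies lie wholly inside other genes. T cell genes (Cd3e, Cd3d, Cd4, Cd8a) summed to between 0.216 and 0.731 CPM in each library, and Cd8a, the only one tested, was not called. Myeloid genes (Lyz2, Csf1r, Mpo, with Itgam at 0) summed to between 0.194 and 1.62 CPM. Csf1r, the only one tested, was called lower at 24 h, where 20.1% of all tested genes were.

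The counts were made in a way that bears on neighbours. Of 3190 genes lying wholly inside 1 other gene on the opposite strand, 99.8% had no counts in any library. The share was 99.97% among 3327 such genes on the same strand. Among protein-coding genes, 98.8% of those enclosed on the opposite strand had no counts, against 19.0% of those with no overlapping gene. With few exceptions, bases shared by 2 genes were thus counted for neither, whichever strand they lie on, although the library kit keeps strand. The part of each body lost in this way was 7.45% for Cnn3, 1.08% for Slc44a3, 0.376% for Alg14, 6.70% for Abcd3 and 16.1% for Rwdd3, and F3 shared none. Of the 7 genes that overlap a member, Gm10652, Gm26027, Gm42929, Gm43609 and 4633401B06Rik had no counts, A530020G20Rik had 1 count in all, and Gm42928 is described with Cnn3.

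Per kb of annotated body, Cnn3 was the highest of the 6 genes before induction, at 4.53 ± 0.0529 CPM per kb (SD, n = 2). Alg14 followed with 1.61 ± 0.0203, Abcd3 with 0.814 ± 0.000707 and Rwdd3 with 0.428 ± 0.0164 CPM per kb. Slc44a3, at 0.0505 ± 0.00323 CPM per kb, and F3, at 0.0106 ± 0.00166, lay far below these. No neighbours in this order overlapped at 0 h. At 2 h the order of the upper genes was no longer resolved, with 1.08 and 1.06 CPM per kb for Cnn3 against 1.10 and 1.06 for Alg14. Abcd3, at 0.978 and 0.963 CPM per kb, was then just below both. At 24 h Cnn3 was again the highest of the 6, at 1.88 ± 0.0456 CPM per kb, above Abcd3 at 1.41 ± 0.0171 and Alg14 at 1.34 ± 0.00612.

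**Figure D1:**
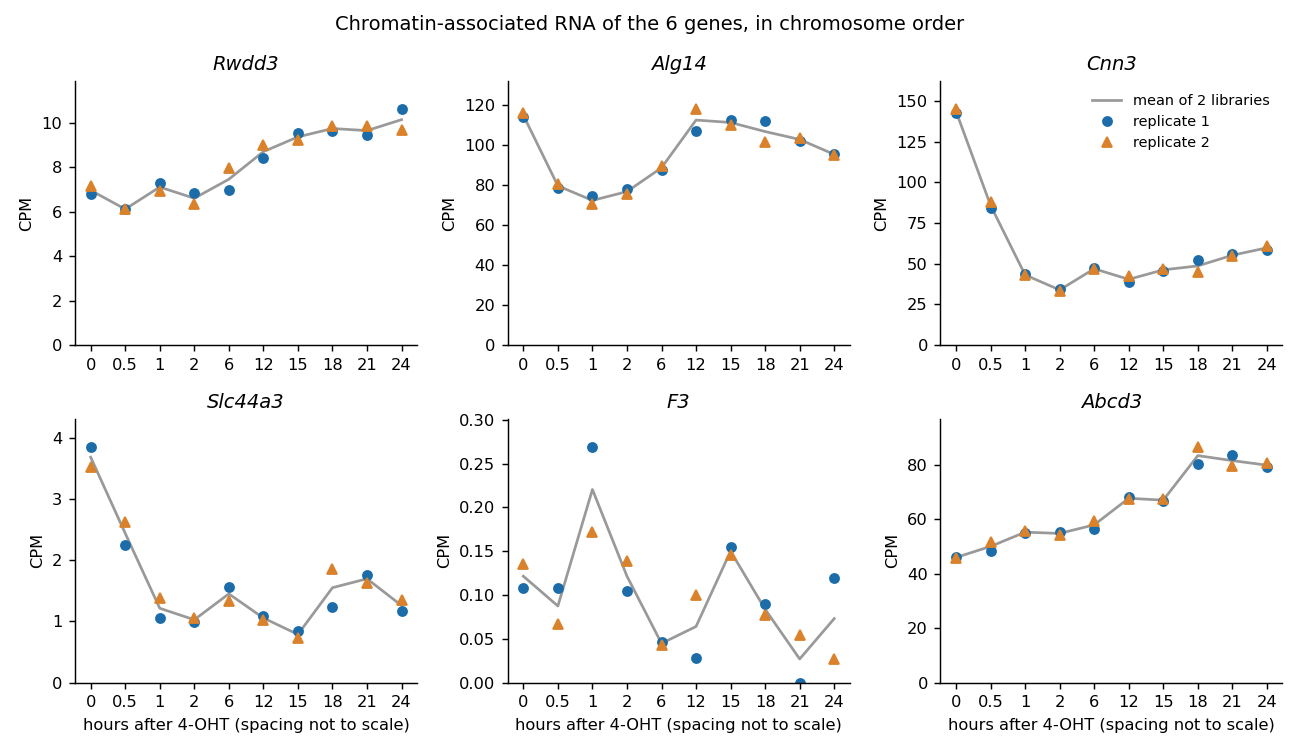
CPM (TMM-scaled) of the 6 genes in each of the 20 libraries against hours after 4-OHT, with circles and triangles for replicates 1 and 2 and a line through their mean; each panel has its own scale. Cnn3 and Slc44a3 are low from 1 h on, Alg14 has its lowest mean at 1 h (72.3 CPM) and lies near its 0 h level at 12 h, and Abcd3 goes from 46.0 CPM at 0 h to 83.4 CPM at 18 h.

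Cnn3 encodes calponin 3, an actin-binding protein of the calponin family that is found outside smooth muscle as well as in it. Its level was 142 and 145 CPM in the libraries at 0 h and 84.0 and 87.6 CPM after 30 min. It was 43.5 and 42.8 CPM after 1 h and 34.3 and 33.5 CPM after 2 h, its lowest point. These values rest on 1315 to 6591 counts per library. All libraries from 30 min on lay below both libraries at 0 h.

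Cnn3 stayed well below its 0 h level at the later times. The values were 47.2 and 46.6 CPM after 6 h, 38.6 and 42.2 after 12 h, 45.7 and 46.8 after 15 h, and 52.2 and 45.1 after 18 h. At 21 h they were 55.8 and 54.6 CPM, and at 24 h 58.7 and 60.8 CPM. Relative to 0 h the log2 fold change was -0.74 ± 0.05 (SE) after 30 min, -1.73 ± 0.05 after 1 h, -2.08 ± 0.06 after 2 h and -1.26 ± 0.05 after 24 h. The level after 24 h was 41.6% of that at 0 h, and 1.76-fold that after 2 h. In bulk RNA, fewer cells that transcribe a gene and less RNA per cell cannot be told apart. The midpoint between the 0 h level and the lowest level was crossed at 28.5 min by linear interpolation, and at 27.7 and 29.2 min in the single replicates. With samples at 0, 30 and 60 min only, this time is an interpolation and not a measurement.

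Gm42928 is a transcript of class TEC in GENCODE on the strand opposite to Cnn3 (chr3:121424236-121427574), and it covers the Cnn3 start. It had 13 and 16 counts at 0 h, 3 and 6 after 1 h and 1 in each library after 2 h. The summed counts after 2 h were 7.67% of those at 0 h, with an exact 95% interval of 0.887% to 30.3% that covers counting error only. At 24 h it had 2 and 3 counts. Only the 0 h libraries and 30 min replicate 2 (11 counts) reached the 10 counts that a gene needed in 2 libraries to be tested. Gm42928 thus entered the test through the time at which it was high. A fall was favoured in advance, and the tests of Gm42928 are no independent support. It passed the edgeR test after 1 h (adjusted p = 0.00639), 2 h (7.96e-05) and 24 h (0.0013), but its calls after 1 h and 24 h were lost with DESeq2 (adjusted p = 0.101 and 0.0284). The 1 h call was also lost with no filter on low counts (edgeR adjusted p = 0.0129) and without 0 h replicate 1, 0 h replicate 2 or 1 h replicate 1 (adjusted p = 0.0122, 0.0528 and 0.133), and the 24 h call without 0 h replicate 2 or 24 h replicate 1 (0.0112 and 0.0149).

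Alg14 encodes the membrane subunit that, with Alg13, adds the second sugar to the lipid-linked oligosaccharide from which N-glycans are made. Its level was 114 and 116 CPM at 0 h, 78.6 and 80.6 after 30 min, 74.3 and 70.3 after 1 h, and 78.1 and 75.3 after 2 h. It was 87.6 and 89.7 CPM after 6 h and 107 and 118 CPM after 12 h. Alg14 was thus not unchanged in these libraries, since after 30 min, 1 h, 2 h and 6 h both libraries lay well below both at 0 h. Its mean was 69.3% of the 0 h mean after 30 min, 63.0% after 1 h, 66.8% after 2 h and 77.2% after 6 h. The log2 fold change was -0.67 ± 0.05 after 1 h and -0.58 ± 0.05 after 2 h, so it did not pass a 2-fold threshold at any time.

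At 15 h Alg14 was at 112 and 110 CPM, after 18 h at 112 and 101, after 21 h at 102 and 103, and after 24 h at 95.6 and 94.96. The 12 h libraries were the only ones to overlap those of 0 h. At 24 h the mean was 83.0% of the 0 h mean, with a log2 fold change of -0.27 ± 0.05. Scaling by library totals alone gave -0.53 at 24 h, where that scaling moved the median of all genes to -0.27. Cnn3 counts were 125% of Alg14 counts in both 0 h libraries, 43.9% and 44.5% after 2 h, and 61.4% and 64.0% after 24 h.

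Slc44a3, a member of the choline transporter-like family, moved with Cnn3 from a much lower level. Its level was 3.85 and 3.51 CPM at 0 h, from 178 and 156 counts. It was 2.25 and 2.63 CPM after 30 min, 1.06 and 1.38 after 1 h, and 0.992 and 1.06 after 2 h, the last from 38 and 46 counts. At 6 h the values were 1.56 and 1.34 CPM, after 12 h 1.09 and 1.02, and after 15 h 0.850 and 0.728. All of the libraries after 0 h lay below both 0 h libraries.

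At 18 h Slc44a3 was at 1.24 and 1.86 CPM, the widest gap between its replicates. It was at 1.76 and 1.63 CPM after 21 h and at 1.16 and 1.36 CPM after 24 h. Slc44a3 fell at all 9 times by the edgeR quasi-likelihood test with Benjamini-Hochberg adjustment over 16601 genes. The log2 fold change was -0.58 ± 0.14 after 30 min (adjusted p = 0.00664), -1.61 ± 0.16 after 1 h (3.2e-08), -1.83 ± 0.17 after 2 h (6.53e-09) and -1.54 ± 0.17 after 24 h (3.42e-08). With a fold change above 2 as well, 4.84%, 6.91% and 20.1% of all tested genes were lower at 1, 2 and 24 h. The shares of all genes lower by adjusted p alone, or with libraries that did not overlap, were not counted. The change of Slc44a3 at 30 min, under 2-fold, thus has no such background. Its lowest level was at 15 h, with a log2 fold change of -2.22 ± 0.18 (adjusted p = 3.74e-10). The change from 2 h to 24 h, 0.29 ± 0.22, did not pass the test (adjusted p = 0.237). The midpoint between the 0 h level and this lowest level was crossed at 35.0 min, and at 28.1 and 42.2 min in the single replicates. The time of Cnn3, 28.5 min, is near the lower end of that range and refers to its own lowest level, at 2 h. Alg14 crossed its own midpoint, to its lowest level at 1 h, at 18.1 min. After 30 min the means were 66.3% of 0 h for Slc44a3, 59.8% for Cnn3 and 69.3% for Alg14.

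Over the 20 libraries, log2 CPM of Slc44a3 and Cnn3 had a Pearson correlation of 0.885, which ranked 102 of 12055 genes averaging at least 1 CPM. The values share the libraries and their scaling, and most of the spread is between 0 h and later times. The correlation with Cnn3 was 0.300 for Alg14, -0.248 for Rwdd3 and -0.423 for Abcd3. Slc44a3 counts were between 1.56% and 4.13% of Cnn3 counts, with a median of 2.77%, and spanned 2.65-fold. As a share of Alg14 counts they spanned 5.10-fold, from 0.662% to 3.38%. The body of Slc44a3 lies just beyond the end of Cnn3, and the deposited counts hold no position within a gene. Whether transcripts of Cnn3 that run past its end enter the Slc44a3 counts was not tested.

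**Figure D2:**
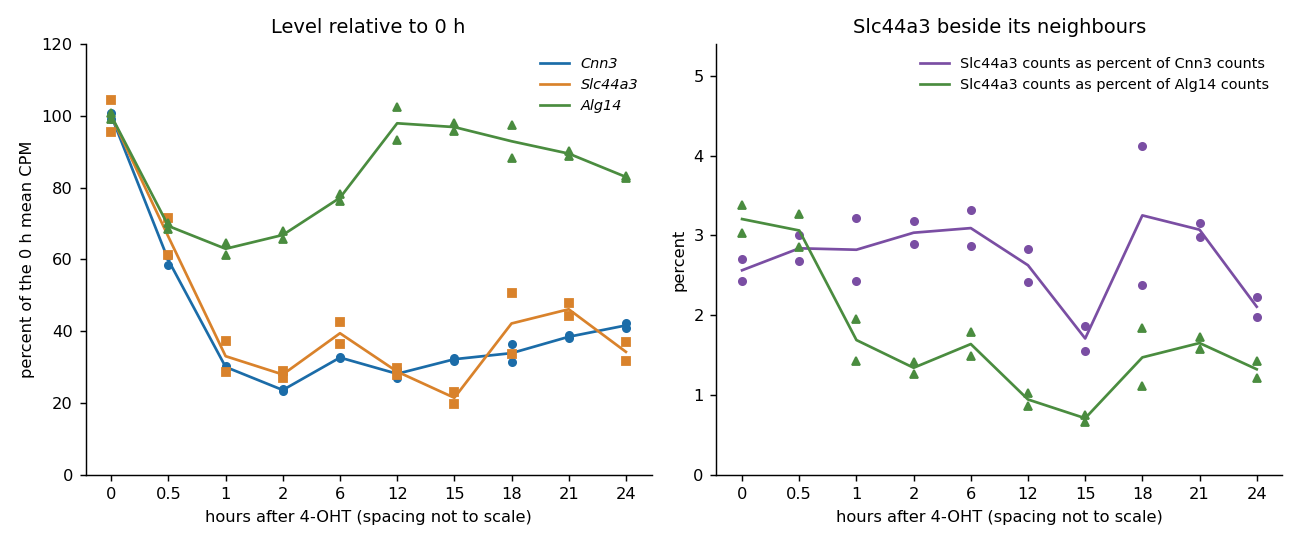
Left, the mean level of Cnn3, Slc44a3 and Alg14 at each time as a percent of the 0 h mean CPM, with a point for each library; right, Slc44a3 counts as a percent of Cnn3 and of Alg14 counts in each library, with a line through the mean. Cnn3 and Slc44a3 were at 23.6% and 27.9% of 0 h at 2 h, where Alg14 was at 66.8%.

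F3 encodes tissue factor, the membrane receptor of coagulation factor VII that starts blood clotting, and its level was near the limit of detection. It had 0 to 13 counts per library and 83 counts in all 20 libraries. The counts were 5 and 6 at 0 h, 13 and 7 after 1 h, 4 and 6 after 2 h and 4 and 1 after 24 h. Only 21 h replicate 1 had none, which allows a level of up to 0.102 CPM. F3 did not pass the filter of 10 counts in 2 libraries. When fitted without that filter, its change at 1 h was 0.87 ± 0.59 on the log2 scale (edgeR adjusted p = 0.389), and a change was not detectable at this depth.

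Abcd3 encodes a peroxisomal membrane transporter that brings fatty acids and bile acid precursors into the peroxisome. It was at 46.1 and 46.0 CPM at 0 h, 48.3 and 51.8 after 30 min, 54.9 and 55.8 after 1 h, and 55.3 and 54.4 after 2 h. It was at 56.5 and 59.5 CPM after 6 h, 68.2 and 67.3 after 12 h, and 66.7 and 67.5 after 15 h. The last times gave 80.3 and 86.6 CPM after 18 h, 83.7 and 79.5 after 21 h, and 79.2 and 80.6 after 24 h. No library after 0 h overlapped those at 0 h.

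Abcd3 rose by the edgeR test at 8 of the 9 times, from 1 h on. The log2 fold change was 0.12 ± 0.05 after 30 min (adjusted p = 0.0987), 0.26 ± 0.05 after 1 h (8.98e-05), 0.25 ± 0.05 after 2 h (0.000113) and 0.80 ± 0.05 after 24 h (1.1e-12). Upward changes with an adjusted p under 0.01 were found in 19.2% of all tested genes after 1 h, 23.9% after 2 h and 35.4% after 24 h. The highest level, 1.81-fold that at 0 h, was after 18 h, so Abcd3 did not pass the 2-fold threshold. From 2 h to 24 h it rose by 0.54 ± 0.05 on the log2 scale (adjusted p = 9.17e-10), a direction taken past the same threshold by 33.5% of genes.

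Rwdd3 encodes a protein that promotes the conjugation of SUMO to other proteins. It was at 6.78 and 7.16 CPM at 0 h, 6.12 and 6.13 after 30 min, 7.28 and 6.95 after 1 h, and 6.86 and 6.36 after 2 h. It was at 6.98 and 7.96 CPM after 6 h, 8.42 and 8.998 after 12 h, and 9.53 and 9.22 after 15 h. At 18 h it was at 9.64 and 9.87 CPM, after 21 h at 9.46 and 9.85, and after 24 h at 10.6 and 9.69. The libraries at 30 min lay below those of 0 h, those at 1, 2 and 6 h overlapped them, and those from 12 h on lay above them.

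Rwdd3 passed the edgeR test at 5 of 9 times, all from 12 h on. The log2 fold change was 0.03 ± 0.08 after 1 h (adjusted p = 0.792), -0.08 ± 0.09 after 2 h (0.456), 0.32 ± 0.08 after 12 h (0.0016) and 0.54 ± 0.08 after 24 h (3.63e-06). Upward changes under that threshold of p were found in 35.4% of genes at 24 h, as given for Abcd3. From 2 h to 24 h Rwdd3 rose by 0.62 ± 0.08 (adjusted p = 9.12e-07). At no time did it reach a 2-fold change.

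The neighbourhood was then widened to 500 kb on either side of the outermost members, which takes in 45 annotated genes. No counts were found for 19 of these, and 12 passed the filter, among them 5 of the 6 members. Most of the 19 have bodies wholly shared with other genes, so an absence of counts does not show that they were silent. A gene was called when its adjusted p was under 0.01 and its fold change above 2. Without Cnn3 and Alg14, whose changes chose the list, 10 genes remained. Over the time course 4 of these 10 were called, against a background of 51.9% of all tested genes. They were Slc44a3, Gm42928, Gm5711 and Bcar3. Gm42928 passed the filter through its counts at 0 h, which favoured its call in advance.

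At 1 h Slc44a3 and Gm42928 were called lower, where 4.84% of all tested genes were, but the call of Gm42928 at that time was lost under the alternatives given above. Because Gm42928 was tested only through its high counts at 0 h, its calls at 1, 2 and 24 h were favoured in advance. At 2 h Bcar3 joined them, where the background was 6.91%, and at 24 h the same 3 genes were called lower, where it was 20.1%. At 30 min no gene of the 10 was called lower by edgeR or by DESeq2, where 0.410% of all tested genes were called by edgeR. At an unadjusted p under 0.05, 2 of the 10 were lower at 30 min in edgeR, against 12.5% of all tested genes. At 2 h no gene was called higher by either tool, where 6.25% of all tested genes were called by edgeR. At an unadjusted p under 0.05, 1 of the 10 was higher at 2 h in edgeR, against 31% of all tested genes.

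Bcar3 encodes an adaptor protein that binds Cas scaffold proteins in integrin signalling. It starts 868 kb from Cnn3. It was at 56.8 and 55.3 CPM at 0 h, 43.5 and 43.2 after 1 h, 23.1 and 23.2 after 2 h and 12.0 and 15.5 after 24 h. At 1 h, where Cnn3 was at 30.0% of its 0 h level, Bcar3 was at 77.4%. Its log2 fold change was -0.07 ± 0.06 after 30 min (adjusted p = 0.548), -1.27 ± 0.07 after 2 h (9.61e-13) and -2.59 ± 0.08 after 18 h (7.6e-18), its lowest point. From 2 h to 24 h it changed by a further -0.75 ± 0.08 (adjusted p = 2.56e-08), and 32.9% of all tested genes fell past an adjusted p of 0.01 in that step.

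Gm5711 is a processed pseudogene between Alg14 and Cnn3 (chr3:121380259-121380679), with its start at -45.8 kb from that of Cnn3. It had 31 and 24 counts at 0 h, 21 and 19 after 1 h, and 31 and 26 after 2 h. It had 73 and 93 counts after 6 h, 108 and 95 after 15 h and 52 and 49 after 24 h. Gm5711 rose from 6 h on, with a log2 fold change of 1.61 ± 0.22 after 6 h (edgeR adjusted p = 1.78e-06), 2.06 ± 0.21 after 15 h (1.75e-08) and 1.24 ± 0.25 after 24 h (0.000114). At 24 h, 20% of all tested genes were called higher. With library totals alone its fold at 24 h was under 2, and the call was lost. RefSeq places the lncRNA Gm33363 (chr3:121369047-121388729 in GRCm38) over the pseudogene, and the parts played by that transcript and by reads from near-identical copies were not tested.

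**Figure D3:**
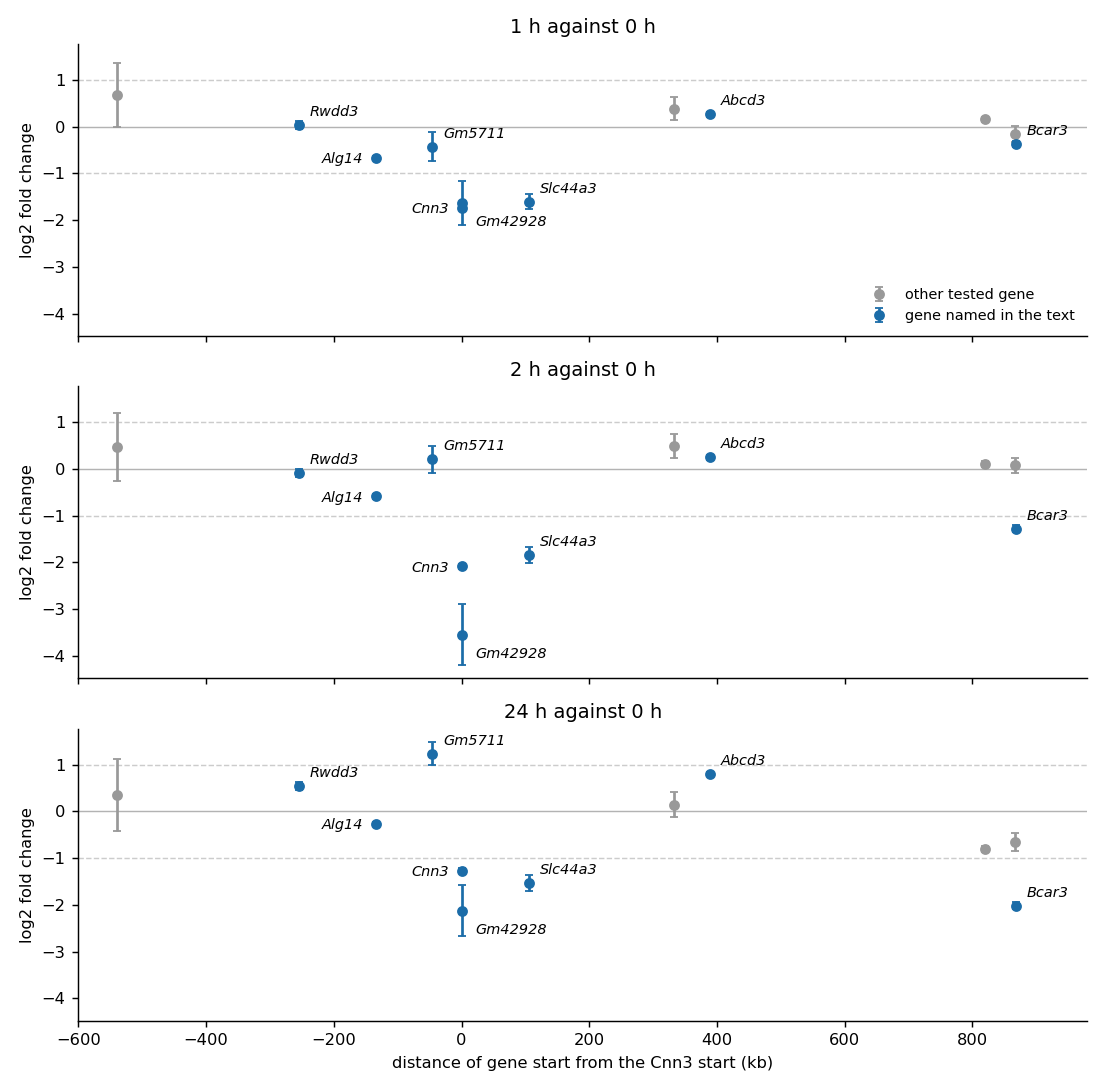
Log2 fold change (± SE) at 1, 2 and 24 h against 0 h for the 12 tested genes, by the distance of each gene's start from the Cnn3 start in kb; dashed lines mark a 2-fold change. Cnn3, Gm42928 and Slc44a3 lay below the lower line at all 3 times, while Alg14, Abcd3 and Rwdd3 stayed between the lines; the fitted value of Gm42928 at 2 h rests on 1 count in each library.

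Genes of the families and pathways to which the 6 belong were examined for comparison. Cnn3 and Alg14 were left out of the counts and medians of their lists, and the other members were included. The counts of genes called over the time course stand beside the background of 51.9% given above. Over all tested genes the median log2 fold change was 0.03 after 2 h and -0.01 after 24 h. Of the other 5 calponin and transgelin genes, 3 were called over the time course (background 51.9%), with a median log2 fold change of 0.34 after 2 h and -0.40 after 24 h. Cnn2, the next calponin, went the other way from Cnn3. It rose from 2.14 CPM at 0 h to 14.6 after 24 h, a log2 fold change of 2.77 ± 0.11 (edgeR adjusted p = 4.99e-16). Tagln2 fell from 18.9 to 3.31 CPM (-2.52 ± 0.11, adjusted p = 3.11e-15), and Tagln3 was higher at 2 h (1.21 ± 0.10, 5.29e-10) and lower at 24 h (-1.59 ± 0.14, 8.48e-10).

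Of 12 other genes that assemble the lipid-linked oligosaccharide, 3 were called over the time course, a share below the background of 51.9%. The median of the 12 was 0.06 after 2 h and -0.31 after 24 h. Alg13, the partner of Alg14, fell at both times without passing a 2-fold change (-0.85 ± 0.05 after 2 h, adjusted p = 1.22e-12, and -0.69 ± 0.05 after 24 h, 1.17e-11). Alg6 changed by 0.51 ± 0.04 at 2 h (8.42e-10) and Alg9 by -0.12 ± 0.05 (0.0307). The called genes, Alg8, Alg3 and Dpagt1, fell at 24 h, by 1.87, 1.83 and 1.19 on the log2 scale. Alg13 and these 3 genes were named after their values were seen.

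Of 5 choline transporter-like genes, 4 were tested, and Slc44a3 was the only one called lower. Slc44a2, the most abundant at 181 CPM at 0 h, was at 185 CPM after 2 h (0.03 ± 0.06, adjusted p = 0.708) and rose to 347 CPM after 24 h (0.94 ± 0.06, 6.65e-12). Slc44a1 rose by 0.34 ± 0.04 at 24 h (adjusted p = 4.51e-08). Slc44a4, at 1.15 CPM at 0 h, was also called over the time course, but its changes after 2 h (0.39 ± 0.19, 0.0886) and 24 h (0.57 ± 0.19, 0.0111) did not pass. The median of the list was -0.02 after 2 h and 0.45 after 24 h.

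The tissue factor pathway was low throughout, with 3 of 9 genes tested, and all 3 were called lower at 2 h, where 6.91% of all tested genes were. Thbd, the endothelial receptor thrombomodulin, went from 11.7 CPM to 3.50 (-1.74 ± 0.10, adjusted p = 4.58e-12) and was at 9.51 CPM at 24 h. Tfpi, the inhibitor of tissue factor, went from 1.05 to 0.258 CPM (-2.01 ± 0.35, 4.59e-05), and F2r, a thrombin receptor, from 0.880 to 0.355 CPM (-1.30 ± 0.30, 0.000876). The median was -1.74 after 2 h and -1.30 after 24 h. The stromal and endothelial genes examined as markers of other cells summed to between 343 and 345 CPM at 0 h to at most 146 CPM after 2 h and to between 402 and 439 CPM after 24 h. Pecam1, at 338 CPM at 0 h, 141 after 2 h and 415 after 24 h, made up most of that sum, while Col1a1, Col1a2, Col3a1, Pdgfrb and Cdh5 had at most 9 counts in any library. Of this list Pecam1 was called over the time course, where 51.9% of all tested genes were, and Acta2 was not. The log2 fold change of Pecam1 was -1.27 ± 0.08 at 2 h (edgeR adjusted p = 6.29e-12). At 24 h it was 0.30 ± 0.07 (0.00104), under 2-fold. The part of this list in the results for Cnn3 and F3 was not tested.

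Of 7 genes of peroxisomal transport and import, 6 were tested. The median log2 fold change was 0.13 after 2 h and 0.54 after 24 h, and Abcd3 lay above it at both times. Pex3 was higher at 2 h and 24 h (0.31 ± 0.06 at both, adjusted p = 0.000142 and 0.000102), and Pex19 did not pass at either (0.140 and 0.562). Of 11 SUMO conjugation genes, 10 were tested and 3 were called over the time course, with a median of -0.01 after 2 h and -0.04 after 24 h. Pias2 rose by 1.19 ± 0.04 and Pias1 by 0.75 ± 0.03 at 24 h, as Rwdd3 did, while Sae1 fell by 1.69 ± 0.05 (all adjusted p under that of Rwdd3).

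**Figure D4:**
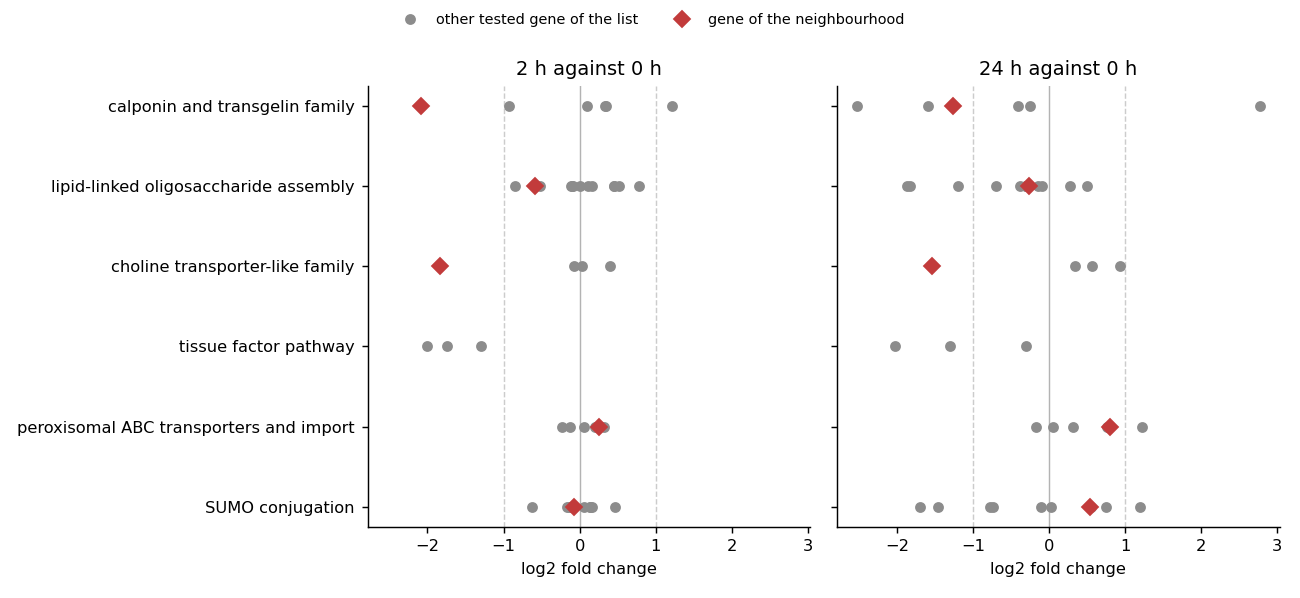
Log2 fold change at 2 h (left) and 24 h (right) of each tested gene in 6 related lists, with diamonds for Cnn3, Alg14, Slc44a3, Abcd3 and Rwdd3 and grey circles for the other genes; F3 was not tested, and dashed lines mark a 2-fold change. Slc44a3 is the lowest of its list at 2 h, at -1.83, while Alg14, Abcd3 and Rwdd3 lie among the other genes of theirs. Cnn3, at -2.08, is also the lowest of its list at 2 h, but it was selected for its fall.

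None of the 5 genes whose log2 CPM followed that of Cnn3 most closely over the 20 libraries lies in the neighbourhood. They were Vamp5, a vesicle SNARE protein (Pearson correlation 0.971), Lef1, a transcription factor of the Wnt pathway (0.967), Ptpn6, a phosphatase of antigen receptor signalling (0.966), Zfp36l1, an RNA-binding protein that promotes mRNA decay (0.961), and Pip4k2a, a lipid kinase (0.958). Only Lef1 is on chromosome 3, with its body at chr3:131110471-131224356. Lef1 went from 1303 CPM at 0 h to 402 after 2 h and 600.0 after 24 h, and Vamp5 from 62.0 to 6.72 and 13.3 CPM. By Spearman correlation only 1 of these 5 remained among the 5 closest.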

How the data were processed

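Chromatin-associated RNA of 20 libraries was sequenced as 75-base pairs with a directional, rRNA-depleted kit. Alignment to mm10 (GRCm38) used STAR within nf-core/rnaseq, and featureCounts assigned exonic and intronic reads to genes. The authors deposited these as raw counts, not normalized. The annotation release, strand setting and treatment of shared reads are not given in the sources used here. Of 56239 identifiers, 55240 were found in GENCODE M21.

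Genes that reached 10 counts in 2 or more libraries were fitted with edgeR 4.0.16 (TMM, quasi-likelihood, time as a factor) in R 4.3.3. A call needed a Benjamini-Hochberg adjusted p under 0.01 and a fold change above 2. The joint test covered all induced times. CPM are counts per 1000000 of the TMM-scaled total. DESeq2 1.42.0, other scalings, no filter, a replicate block and left-out libraries were alternatives. The fit was also run on simulated data with an equal spread in all libraries and changes only in well-counted genes. Changes at low counts and uneven replicates were thus not covered by it. Intervals and the floor of 3 counts cover counting error only.

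The members and lists were chosen with earlier results of these data known. Named genes are the members, genes that overlap them or were called in the window of 500 kb, the 4 most abundant tested genes of each list and the 5 closest to Cnn3. Some list genes are not reported here.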

Additional observations from a re-analysis of the deposited data

Results flagged for a closer look

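For 4 genes the change at 24 h differed from that at 2 h by the edgeR quasi-likelihood test of 24 h against 2 h, with Benjamini-Hochberg adjustment over all tested genes. Abcd3 was higher at 24 h by 0.54 on the log2 scale (55.3 and 54.4 CPM at 2 h against 79.2 and 80.6) and Rwdd3 by 0.62 (6.86 and 6.36 CPM against 10.6 and 9.69). Gm5711 was higher by 1.03 (31 and 26 counts against 52 and 49, adjusted p = 0.000751). Bcar3 was lower by this test, with a difference of -0.75 (23.1 and 23.2 CPM against 12.0 and 15.5, adjusted p = 2.56e-08). Differences in this direction with an adjusted p under 0.01 were found in 33.5% of all tested genes upward and in 32.9% downward.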

How the results depend on the processing

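Counts of genes called over the time course or lower include Cnn3 here, and Gm42928 wherever it was called. Over the time course 5 were called, 6 with library totals alone (Gclm added), 7 with no filter (Gm43158 and Gm40190 added) and 4 in a window of 200 kb. These 3 genes were named after their values were seen. At 1 h 3 were lower, and 2 with no filter or with the DESeq2 test. At 24 h 4 were lower, 5 with library totals alone (Gclm added) and 3 with the DESeq2 test. The number called higher at 24 h was 0 with library totals alone. The members' log2 fold changes at 1, 2, 6 and 24 h kept their direction, apart from Rwdd3 at 1 h. Those tested kept their side of the threshold of adjusted p. Some of the values moved in size. With library totals alone Cnn3 at 24 h was -1.52, Slc44a3 -1.80 and Alg14 -0.53. The late rises were smaller with that scaling. At 24 h Abcd3 was 0.54 and Rwdd3 0.28, against 0.80 and 0.54 in the main fit. From 2 h to 24 h they rose by 0.27 and 0.35, against 0.54 and 0.62. The TMM factors were 1.050 and 1.045 at 0 h and 0.881 and 0.870 at 24 h. Cnn3 at 6 h, -1.61 as reported, was -1.64 with DESeq2 size factors, with no filter and with the DESeq2 test. The half-maximal time was 39.0 min for Cnn3 and 45.3 min for Slc44a3 on log2 CPM. By Spearman correlation 1 of the 5 genes closest to Cnn3 was kept. Rwdd3 at 1 h, which did not pass the test, turned to -0.0098 without 0 h replicate 1 and to -0.0031 without 1 h replicate 1, and left-out libraries gave at most 0.069.

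Leaving out single libraries gave 5 genes called over the time course each time, 2 to 3 lower at 1 h, 4 at 2 h and 3 to 4 at 24 h. The main fit did not pair libraries by replicate number. The deviations of same-numbered libraries correlated by 0.0239 on average over 45 pairs of time points (-0.644 to 0.429), with 18 pairs over 0.1. An average near 0 over so wide a range cannot exclude pairing at some of the times. With the replicate block 5 genes were called over the time course, and Slc44a3 at 2 h was -1.84 (adjusted p = 4.28e-08). The alternative without 12 h and 18 h was chosen after seeing the data. With 2 libraries per time, and 30 to 178 counts per library for Slc44a3, smaller changes of that gene could not be resolved.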
